A study of Mus musculus with 24 samples.

Results

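The genes described here are Txnip, its relatives Arrdc4, Arrdc2 and Arrdc3, and Mlx, Mlxip and Mlxipl, which encode the glucose-responsive transcription factors known to induce Txnip and Arrdc4. They were chosen by name, and the 7 genes are covered by 13 of the 32994 probes that carry a gene name. All 7 were among the 17737 genes tested. RNA of kidney tissue from male mice of the outbred strain Crl:CD1(ICR) was measured on 24 single-colour arrays in 3 groups, 1 array per sample. The DKD+enarodustat group (n = 9) was made diabetic with 90 mg/kg of intravenous alloxan 3 days before grouping and then received enarodustat as 0.01% of its feed, while the DKD group (n = 9) received the same alloxan and normal feed. The Sham group (n = 6) received the vehicle of alloxan and normal feed, and kidneys of every group were taken 16 days after grouping. Alloxan is a toxin of the insulin-producing beta cell, so the model is one of insulin lack, and the mice of both diabetic groups were picked to match in blood glucose and body weight. The ages of the mice are not given in the sources used here.

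TXNIP is an arrestin-like protein that binds and inhibits thioredoxin and promotes the removal of the glucose transporters GLUT1 and GLUT4 from the cell surface. Its gene is among the most glucose-responsive known: when glucose 6-phosphate accumulates in a cell, MondoA (gene Mlxip) or its paralogue ChREBP (gene Mlxipl), each joined to the shared partner MLX, binds carbohydrate response elements in the Txnip and Arrdc4 promoters. ARRDC4 also lowers glucose uptake, and ARRDC2 and ARRDC3 are alpha-arrestins that act as adaptors for ubiquitin ligases. Enarodustat blocks prolyl hydroxylases and so stabilises the alpha subunits of hypoxia-inducible factor (HIF).

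The promoter of Txnip is shown because glucose is known to act there through a carbohydrate response element in human cells, and those of Arrdc4 and Mlx because they are the members whose values the results turn on besides Txnip. The windows come from RefSeq (GRCm38.p6), cover the 250 bases before the annotated transcription start, read 5′ to 3′ on the gene's strand, and carry each CACGTG or CACGAG in capitals.
Txnip, chr3:96557707-96557956, plus strand: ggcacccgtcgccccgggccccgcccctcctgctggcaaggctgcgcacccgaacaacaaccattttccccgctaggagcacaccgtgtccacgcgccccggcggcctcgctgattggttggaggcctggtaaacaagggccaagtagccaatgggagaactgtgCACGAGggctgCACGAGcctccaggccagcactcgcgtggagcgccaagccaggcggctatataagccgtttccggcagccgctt
Arrdc4, chr7:68749239-68749488, minus strand: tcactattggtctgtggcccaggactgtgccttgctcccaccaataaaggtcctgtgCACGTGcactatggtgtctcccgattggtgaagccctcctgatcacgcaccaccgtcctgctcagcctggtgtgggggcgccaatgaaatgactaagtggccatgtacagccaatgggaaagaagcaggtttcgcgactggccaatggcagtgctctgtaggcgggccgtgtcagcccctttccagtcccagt
Mlx, chr11:101087040-101087289, plus strand: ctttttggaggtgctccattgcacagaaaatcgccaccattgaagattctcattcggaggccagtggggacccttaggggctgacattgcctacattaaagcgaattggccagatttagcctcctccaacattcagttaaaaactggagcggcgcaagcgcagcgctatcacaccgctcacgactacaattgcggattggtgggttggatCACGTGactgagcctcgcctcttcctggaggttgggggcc
A carbohydrate response element consists of a pair of E-box-like blocks spaced by 5 bases, and the mouse Txnip window holds a stretch of this form, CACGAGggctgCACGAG, at chr3:96557872-96557888, from 85 to 69 bases before the start. On both strands, the spaced pair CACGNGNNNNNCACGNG was found in 15 of 32851 RefSeq windows of the same length (0.0457%), and this spelling was set after the Txnip sequence had been read. Those 15 windows belong to 14 genes, of which 11 were tested. In DKD against Sham 1 of the 11 rose, Txnip itself, and 0 fell, beside 5.48% and 6.07% of all genes, with a median log2 change of −0.05. Since the spelling came from Txnip, its place among them carries no information, and the share is near that of all genes. Among the same 11 genes, Man2b2, a lysosomal alpha-mannosidase, passed in DKD+enarodustat against Sham (0.33, adjusted p = 0.0255), where 15.5% of all genes passed. It was named after its value was seen.

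The Arrdc4 window held a full E-box, CACGTG, from 193 to 188 bases before the start, and no spaced pair as spelled here. The same 6 bases stood 40 to 35 bases before the start of Mlx, which belongs to the gene family that binds such boxes. CACGTG occurred in 6.02% of all windows and CACGAG in 5.37%. The Arrdc4 window also held 6 copies of CCAAT, the box bound by NF-Y, which is known to assist Mondo factors at the human TXNIP promoter. At least 6 copies were found in 0.0578% of windows, against 33.8% with at least 1 copy. The cut of 6 was taken from the Arrdc4 window itself, so its rarity carries no information on NF-Y. The Txnip, Mlx and Mlxip windows held 2 copies each and the Arrdc2 window 3, and no Arrdc3 or Mlxipl window held more than 1. Of all windows 10.1% held 2 or more. All 7 members had a window, 10 windows in total. One of the Mlxipl windows held 1 CACGTG and 1 CACGAG, the Arrdc2 window held 1 CACGAG, and the windows of Arrdc3, Mlxip and the other Mlxipl start held neither.

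Levels are log2 signals minus the 75th percentile of the array, so a level of 0 equals that percentile, and they are set side by side only for the same probe. Changes are log2 differences ± SE from 1 limma fit over all genes, and a gene is said to have passed where its p-value, adjusted by Benjamini-Hochberg over the 17737 genes, was under 0.05. Where a gene's other, less bright probe is given, its values come from a separate limma fit of every probe. Its p-values there are adjusted over 40774 probes, with the same threshold. Between DKD+enarodustat and DKD, 126 genes passed (0.71%), and 85.7% of them were higher, against 73.8% of the genes called after normexp correction with quantile normalization, 75.5% after quantile normalization alone and 69.5% in the authors' deposited values. In DKD against Sham 2049 genes passed (11.6%), and in DKD+enarodustat against Sham 2748 (15.5%). The 3 slides of 8 arrays each held 3 DKD+enarodustat, 3 DKD and 2 Sham arrays. All DKD+enarodustat arrays lay in row 2 of a slide, as did 3 of the 9 DKD arrays, and all Sham arrays in row 1, so a row effect between DKD+enarodustat and Sham can be estimated only through the DKD arrays, which lie in both rows. The kidney's own markers were present: 9 of 9 proximal tubule markers were tested, at a mean level of 5.58 to 5.87 in DKD+enarodustat, 5.65 to 5.97 in DKD and 5.85 to 6.10 in Sham arrays.

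In diabetic kidneys Txnip rose and Mlx fell, and the remaining members did not pass. Of the 7 members, 1 rose and 1 fell in DKD against Sham, where 5.48% of all genes rose and 6.07% fell. In that comparison 3 members had an unadjusted p under 0.05, beside 4391 of the 17737 genes. In DKD+enarodustat against DKD, 0 of the 7 members passed in limma against 0.71% of all genes. There 1 of them, Arrdc4, had an unadjusted p under 0.05, beside 1931 of the 17737 genes. Against Sham, 1 member, Mlx, passed in DKD+enarodustat kidneys and was lower, where 15.5% of all genes passed and 6.62% were lower. The median change of the members was 0.13 in DKD against Sham and −0.05 in DKD+enarodustat against DKD, beside medians over all genes of −0.01 and 0.01.

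**Figure D1:**
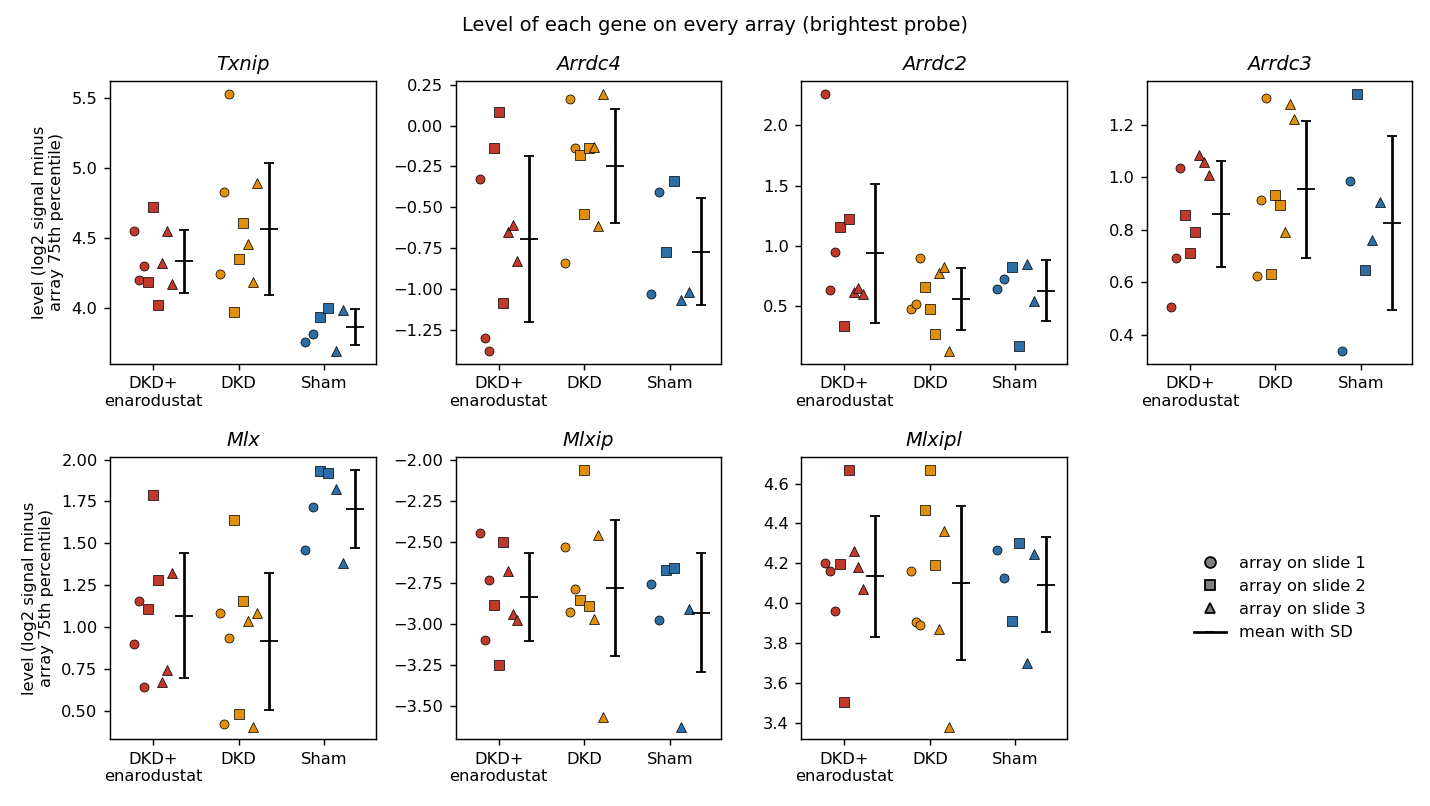
Level of each of the 7 genes on every array at the brightest probe (log2 signal minus the array's 75th percentile), for DKD+enarodustat (n = 9), DKD (n = 9) and Sham (n = 6); marker shape gives the slide, and the bar the mean with SD. For Txnip all 9 DKD+enarodustat arrays and 8 of 9 DKD arrays lie above the highest Sham array, and for Mlx 8 of 9 arrays in each diabetic group lie below the lowest Sham array.

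Txnip signals at the brightest probe lay far above the 75th percentile on every array. At the other Txnip probe all 6 Sham arrays lay below that percentile. At the brightest probe the Txnip level was 4.03 at its lowest, 4.31 at the median and 4.72 at its highest in DKD+enarodustat kidneys. The same 3 values were 3.97, 4.46 and 5.53 in DKD kidneys and 3.70, 3.88 and 4.00 in Sham kidneys. The Sham kidneys kept close together, the DKD kidneys spread widely with DKD 3 far above the rest, and DKD 4 was the only diabetic kidney inside the Sham range. The means were 4.34 ± 0.23 in DKD+enarodustat (SD, n = 9), 4.56 ± 0.47 in DKD (SD, n = 9) and 3.87 ± 0.13 in Sham (SD, n = 6).

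Txnip was 1.62-fold higher in DKD than in Sham kidneys, a log2 change of 0.70 ± 0.17 (adjusted p = 0.00797, limma), with 8 of 9 DKD arrays above the highest Sham array. Among all tested genes 6.73% changed by more in either direction. A less bright probe for Txnip gave 0.76 ± 0.15 (adjusted p = 0.00259), with DKD levels of −0.16 to 1.19 and Sham levels of −0.65 to −0.17 that did not overlap, which held for 3.35% of all genes. Within the slides the rise was 1.08, 0.34 and 0.67, so every slide had the same direction, with sizes that differed. Without DKD 3, the highest array, the change was 0.58 (adjusted p = 0.00588, within a range of 0.000896 to 0.0395 over 38 alternatives, each under the threshold).

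Enarodustat left Txnip between the other groups, without a difference from DKD that passed. The change from DKD was −0.23 ± 0.15, with a 95% interval of −0.54 to 0.08 (adjusted p = 0.664), and the less bright probe gave −0.27 ± 0.14 (adjusted p = 0.586). In the DKD group 3 of 9 arrays exceeded the highest DKD+enarodustat array, and the lower ends of both groups were alike. This difference depended on DKD 3, without which it was −0.11 (adjusted p = 0.896), and on slide 1, where it was −0.51 against 0.00 on slide 2 and −0.17 on slide 3. With the slide row as a term it was −0.67 (adjusted p = 0.125, the lowest of a range up to 0.896 over 38 alternatives).

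Compared with Sham, Txnip in DKD+enarodustat kidneys stood 1.39-fold higher (0.47 ± 0.17) and just missed the threshold (adjusted p = 0.0597, limma), although all 9 arrays lay above all 6 Sham arrays, as for 2.96% of genes. At the less bright probe the change was 0.50 ± 0.15 and passed (adjusted p = 0.0324), again with no overlap. The call depended on the scaling: with quantile normalization the change was 0.54 (adjusted p = 0.0216). Over 38 alternatives the adjusted p ran from 0.00667 to 0.603 and was under the threshold in 10. A slide-row term turned the sign, to −0.20 (adjusted p = 0.603), where the row effect comes from the DKD arrays alone.

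Arrdc4, the closest relative of Txnip among glucose-induced genes, had its highest mean in untreated diabetes, but no comparison of it passed. Its levels were −1.38 (lowest), −0.65 (median) and 0.08 (highest) in DKD+enarodustat, −0.84, −0.14 and 0.19 in DKD, and −1.06, −0.89 and −0.34 in Sham kidneys. In the DKD group 6 of 9 arrays lay above every Sham array, while DKD+enarodustat kidneys spanned the whole Sham range and lay below the 2 highest DKD arrays. The change was 0.52 ± 0.21 in DKD against Sham (adjusted p = 0.113, limma) and −0.44 ± 0.19 in DKD+enarodustat against DKD (unadjusted p = 0.0261, adjusted p = 0.366). Against Sham the DKD+enarodustat mean differed by 0.08 ± 0.21, with a 95% interval of −0.35 to 0.51 (adjusted p = 0.856).

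The less bright Arrdc4 probe had the same signs with smaller changes, 0.25 ± 0.12 in DKD against Sham and −0.24 ± 0.11 in DKD+enarodustat against DKD (adjusted p = 0.209 and 0.511). Within slides, the difference of DKD+enarodustat from DKD was −0.73, −0.09 and −0.51, and that of DKD from Sham 0.44, 0.27 and 0.86. All 38 alternatives kept both signs, with adjusted p from 0.0671 to 0.254 in DKD against Sham and from 0.245 to 0.56 in DKD+enarodustat against DKD.

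Arrdc2 and Arrdc3 did not pass in any comparison. Arrdc2 levels ran from 0.33 through a median of 0.65 to 2.26 in DKD+enarodustat, from 0.13 through 0.51 to 0.90 in DKD and from 0.17 through 0.68 to 0.85 in Sham kidneys. One mouse, DKD+enarodustat 1, stood far above all others, and the rest of the groups overlapped. The change in DKD+enarodustat against DKD was 0.38 ± 0.19 (adjusted p = 0.464), and 0.21 (adjusted p = 0.624) without that mouse, within a range of adjusted p from 0.381 to 0.662 over 38 alternatives. Arrdc2 changed by −0.07 ± 0.21 in DKD against Sham (95% interval −0.50 to 0.36, adjusted p = 0.888).

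Arrdc3, measured by 1 probe, had levels of 0.51 to 1.09 in DKD+enarodustat, 0.62 to 1.30 in DKD and 0.34 to 1.32 in Sham kidneys, with both diabetic groups inside the Sham range. Its changes were −0.09 ± 0.12 in DKD+enarodustat against DKD (95% interval −0.35 to 0.16) and 0.13 ± 0.14 in DKD against Sham (95% interval −0.15 to 0.41).

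Mlx, the partner that MondoA and ChREBP both need to bind DNA, was the only one of the 3 transcription factor genes that passed. At the brightest probe its level was 0.64, 1.11 and 1.79 (lowest, median, highest) in DKD+enarodustat, 0.40, 1.04 and 1.64 in DKD, and 1.38, 1.77 and 1.93 in Sham kidneys. A single mouse in each diabetic group, DKD+enarodustat 5 and DKD 4, reached the Sham range, and the diabetic groups overlapped each other widely. Mlx fell by 0.79 on the log2 scale in DKD against Sham (SE 0.19, adjusted p = 0.00643, limma), to 0.578 of the Sham signal. Within slides the changes were −0.78, −0.83 and −0.76.

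The fall of Mlx did not differ detectably with enarodustat. The change was 0.15 ± 0.17 in DKD+enarodustat against DKD (95% interval −0.19 to 0.49, adjusted p = 0.855) and −0.64 ± 0.19 in DKD+enarodustat against Sham (adjusted p = 0.021). The call against Sham was lost in 5 of 38 alternatives, among them the ones without Sham 3 (−0.59, adjusted p = 0.0542) and without Sham 4 (−0.60, adjusted p = 0.0505), within a range of adjusted p from 0.00623 to 0.166. A less bright Mlx probe, which tracked the first with r = 0.545 over the 24 arrays, moved less: −0.34 ± 0.13 in DKD against Sham and −0.28 ± 0.13 in DKD+enarodustat against Sham (adjusted p = 0.119 and 0.166). At that probe 7 of 9 DKD arrays lay below the lowest Sham array. The fall of Mlx in DKD therefore passed at 1 of 2 probes.

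Mlxip (MondoA, the Mondo factor of most tissues) and Mlxipl (ChREBP, the one of liver, fat and kidney tubule) gave no call. Mlxip levels at the brightest probe were −3.25 to −2.45 in DKD+enarodustat, −3.57 to −2.06 in DKD and −3.62 to −2.66 in Sham kidneys, and overlapped throughout. Its changes were −0.05 ± 0.16 in DKD+enarodustat against DKD and 0.15 ± 0.18 in DKD against Sham, with intervals of −0.39 to 0.28 and −0.22 to 0.52. A dimmer Mlxip probe had 0.85 ± 0.36 in DKD against Sham (adjusted p = 0.151), but was well above background on 7 of 9 DKD+enarodustat, 8 of 9 DKD and 3 of 6 Sham arrays.

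Mlxipl levels were 3.51 to 4.67 in DKD+enarodustat, 3.38 to 4.67 in DKD and 3.70 to 4.30 in Sham kidneys, all groups centred alike. Its changes were 0.03 ± 0.15 in DKD+enarodustat against DKD and 0.01 ± 0.17 in DKD against Sham, with 95% intervals of −0.28 to 0.34 and −0.34 to 0.35. The other Mlxipl probe gave 0.66 ± 0.32 in DKD against Sham (unadjusted p = 0.0495, adjusted p = 0.218). The 2 Mlxipl probes hardly followed each other (r = 0.193 over 24 arrays), unlike those of Arrdc2 (0.985), Txnip (0.88), Mlxip (0.779) and Arrdc4 (0.708), so a statement on Mlxipl holds for a probe rather than for the gene. The ChREBP isoforms cannot be told apart here.

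**Figure D2:**
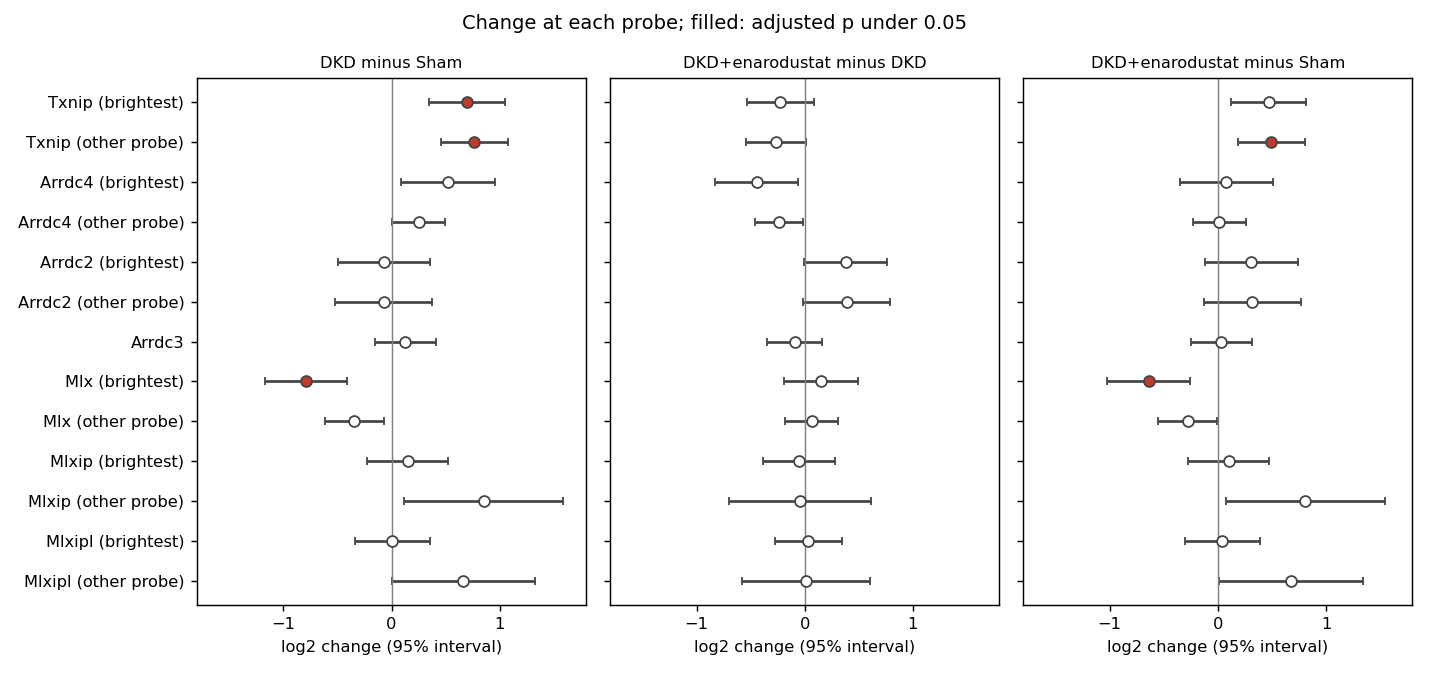
Log2 change with its 95% interval at each of the 13 probes of the 7 genes, in DKD minus Sham, DKD+enarodustat minus DKD and DKD+enarodustat minus Sham; filled points have an adjusted p under 0.05. Both Txnip probes (0.70 and 0.76) and the brightest Mlx probe (−0.79) are filled in DKD minus Sham, and no probe is filled in DKD+enarodustat minus DKD.

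Whether the members moved together from mouse to mouse was examined on deviations from the group means, at the brightest probe of each gene. The test was a two-sided permutation within groups, over 24 arrays and 12 pairs. Mice with more Txnip than their group tended to have more Arrdc4: r was 0.476 (permutation p = 0.0131, adjusted over the 12 pairs 0.105) and rho 0.629 (permutation p = 0.00176, adjusted 0.0211). Without DKD 3 and DKD 4, which lay farthest from the Txnip median, r was 0.694 (permutation p = 0.00098, n = 22). It was 0.611 within DKD+enarodustat, 0.536 within DKD and 0.425 within Sham (exact permutation p = 0.0841, 0.135 and 0.375, n = 9, 9 and 6). Arrays of different groups on 1 slide shared deviations across genes (median correlation 0.189, against −0.091 on different slides). With slide effects also removed by least squares, the relation of Txnip with Arrdc4 passed (r = 0.582, adjusted p = 0.0308, permutation). These permutations ran within groups but across slides, so the p-value is not that of a slide-blocked test. On the 3 slides of 8 arrays r was 0.57, 0.555 and 0.901. Quantile normalization lowered r to 0.235 (adjusted p = 0.567), and over 30 alternatives the adjusted p ran from 0.0211 to 0.587.

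At their brightest probes, Txnip and Mlxipl ran against each other on this scale, with r = −0.549 (permutation p = 0.0175, adjusted 0.105) and rho = −0.512 (permutation p = 0.0228, adjusted 0.137). Without the same pair of arrays r was −0.588 (permutation p = 0.0111, n = 22), and on the slides it was −0.555, −0.748 and −0.515. It was −0.701 within DKD+enarodustat, −0.637 within DKD and 0.523 within Sham (exact permutation p = 0.0283, 0.0649 and 0.289, n = 9, 9 and 6). After quantile normalization the relation was gone (r = 0.01, adjusted p = 0.979), so the relation depended on the scaling, with adjusted p from 0.031 to 0.979 over 30 alternatives. The other Mlxipl probe, which hardly followed the brightest (r = 0.193), was not tested against Txnip, so the relation holds for a probe rather than for the gene. None of the 12 pairs passed by Pearson's r, and by rho only Txnip with Arrdc4 did. For the other 10 pairs the lowest unadjusted permutation p was 0.0672 by r and 0.118 by rho. Arrdc4 and Mlxip had r = −0.797 within DKD (unadjusted exact permutation p = 0.00834, n = 9), against −0.215 within DKD+enarodustat and 0.431 within Sham.

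**Figure D3:**
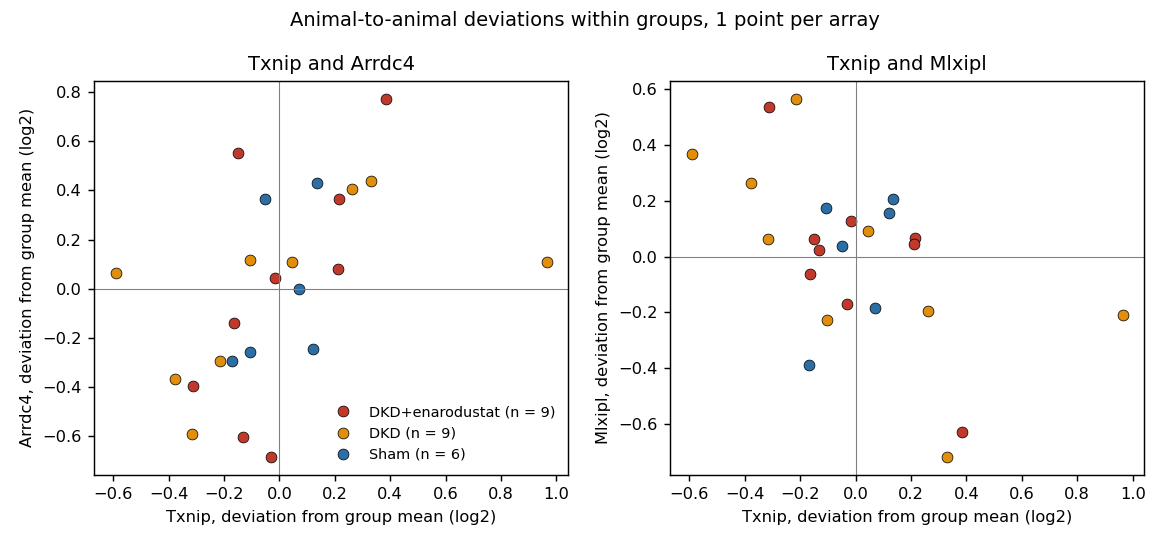
Deviation of Txnip from its group mean (x axis, log2) against that of Arrdc4 (left) and Mlxipl (right), each at its brightest probe, with 1 point per array of DKD+enarodustat, DKD and Sham. Arrdc4 tends upward with Txnip (r = 0.476) and Mlxipl downward (r = −0.549), and after quantile normalization these values are 0.235 and 0.01.

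Over all tested genes, those whose deviations followed Txnip most closely were Arpc1b (r = 0.835), a subunit of the Arp2/3 complex that nucleates actin, Sorcs2 (0.806), a sorting receptor, Rogdi (0.778), Irf8 (0.775), a transcription factor of myeloid cells, and Irgm1 (0.759), an interferon-inducible GTPase. Arrdc4 ranked 824th of 17724 genes by this measure. Without DKD 3 and DKD 4 the r of these 5 genes lay between 0.611 and 0.674. The 5 closest to Arrdc4 were Bcat2 (0.768), the mitochondrial branched-chain aminotransferase, Trpv6 (0.734), an epithelial calcium channel, Zfyve21 (0.734), Gpx6 (0.729) and Ercc1 (0.724), a DNA repair nuclease subunit. These values are descriptions over 24 arrays that share the array scaling.

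Of 25 further genes known as targets of MondoA or ChREBP, 24 were tested, and in diabetes they moved in both directions: 5 rose, 5 fell and 14 did not pass in DKD against Sham, beside 5.48% and 6.07% of all genes. Their median change was 0.19. Slc2a2, the glucose transporter GLUT2, rose by 0.87 ± 0.10 (adjusted p = 2.14e-05), and Elovl6, a fatty acid elongase, by 0.87 ± 0.18 (adjusted p = 0.00257). Both were higher in 9 of 9 DKD arrays than the Sham mean. Klf10, a Krüppel-like repressor, rose by 0.55 ± 0.17 (adjusted p = 0.0309) and lost its call in 9 of 37 alternatives. Pklr, the liver and kidney pyruvate kinase that is the classic ChREBP target, rose by 0.53 ± 0.17 (adjusted p = 0.0445), but lost its call in 25 of 37 alternatives and changed by 0.26 with normexp and quantile normalization. Acacb, the mitochondrial acetyl-CoA carboxylase, rose by 0.64 ± 0.15 (adjusted p = 0.00725) at its brightest probe and not in the mean of its probes (adjusted p = 0.804).

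The 5 that fell were Scd1, Me1, Fasn, Acaca and Acly. Elovl6, the elongase, rose, while Acacb rose at its brightest probe and not in the mean of its probes. Thrsp, a lipogenic regulator, changed by 0.59 ± 0.22 (adjusted p = 0.0806). Scd1, stearoyl-CoA desaturase, fell to a mean level of −1.32 in DKD against −0.02 in Sham kidneys (−1.30 ± 0.27, adjusted p = 0.00235), and Me1, malic enzyme, to 5.40 against 6.12 (−0.71 ± 0.13, adjusted p = 0.00127). Each was below the Sham mean in 9 of 9 DKD arrays and kept its call in all 37 alternatives. Fasn, fatty acid synthase, changed by −0.84 ± 0.23, Acaca, the cytosolic acetyl-CoA carboxylase, by −0.45 ± 0.13, and Acly, ATP-citrate lyase, by −0.34 ± 0.08 (adjusted p = 0.0189, 0.0242 and 0.00844). These 3 lost their calls in 4, 5 and 5 of the 37 alternatives. Fasn and Acly lost theirs with normexp and quantile normalization, with quantile normalization alone and in the deposited values, where Acaca kept its call. With enarodustat against DKD, none of the 24 passed in limma, where 0.71% of all genes did, and their median was −0.06. Of the 24, 6 had an unadjusted p under 0.05, beside 1931 of the 17737 genes.

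**Figure D4:**
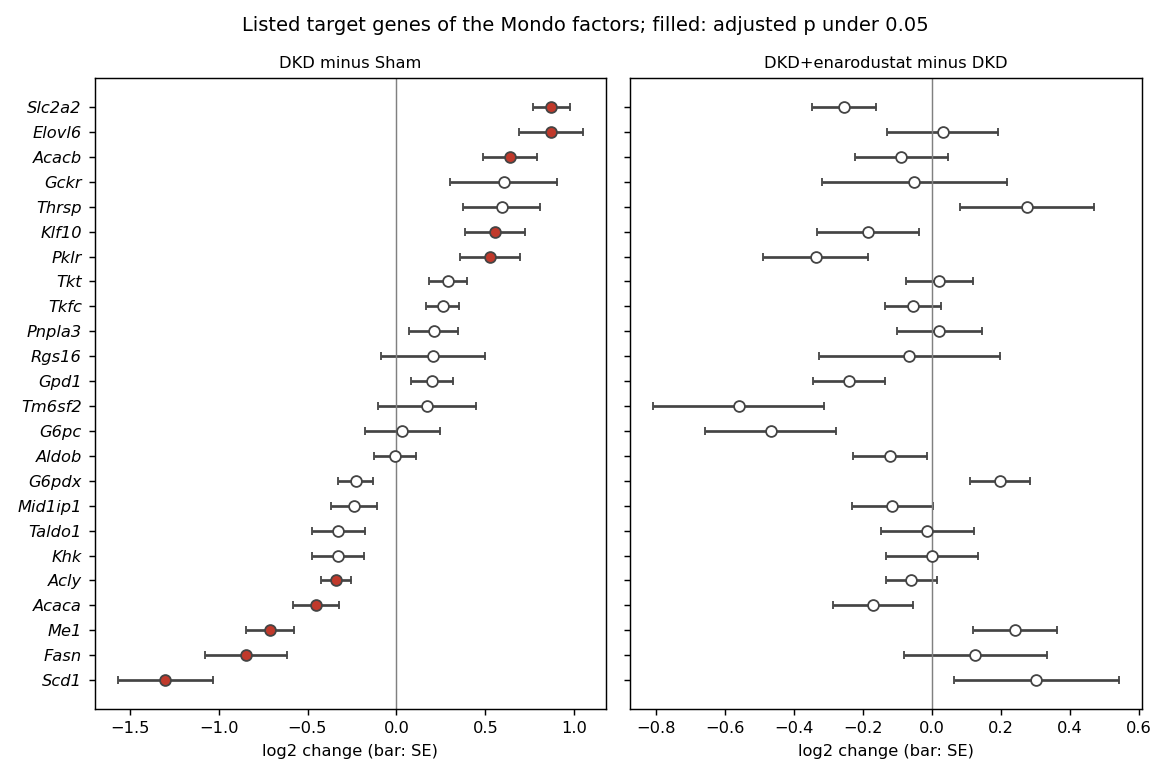
Log2 change (point) with SE (bar) of the 24 tested target genes of MondoA or ChREBP, in DKD minus Sham (left) and DKD+enarodustat minus DKD (right), each panel with its own x range; filled points have an adjusted p under 0.05. On the left 5 genes from Slc2a2 (0.87) to Pklr (0.53) are filled on the positive side and 5 from Acly (−0.34) to Scd1 (−1.30) on the negative side, and on the right none is filled.

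The lists of genes that act around the members are set beside the shares of all genes that passed, 11.6% in DKD against Sham, 0.71% in DKD+enarodustat against DKD and 15.5% in DKD+enarodustat against Sham. An unadjusted p under 0.05 was held by 4391 of the 17737 genes in DKD against Sham and by 1931 in DKD+enarodustat against DKD. Of 10 genes of the MYC, MAX and MXD network, with which MLX shares partners, none passed in DKD against Sham or in DKD+enarodustat against DKD in limma, and 2 and 0 had an unadjusted p under 0.05. The listed genes' median changes were −0.13 and 0.01. In DKD+enarodustat against Sham 2 of the 10 rose, Myc by 1.22 (adjusted p = 0.0104) and Mxd3. Of the 6 other arrestins, Arrb1 (beta-arrestin 1) fell by 0.65 in DKD against Sham (SE 0.15, adjusted p = 0.00559), and none passed in DKD+enarodustat against DKD, where 1 had an unadjusted p under 0.05. Arrb2 (beta-arrestin 2) was the 1 of 6 that rose in DKD+enarodustat against Sham.

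Of 19 genes of the thioredoxin system and of TXNIP or arrestin-domain partners, 1 fell and none rose in DKD against Sham. Adrb1, the beta-1 adrenergic receptor, fell to a mean level of −3.25 in DKD against −2.77 in Sham kidneys (−0.48 ± 0.11, adjusted p = 0.00429), and by 0.23 with normexp and quantile normalization. Thioredoxin itself, Txn1, changed by −0.13 ± 0.11 and the transporter gene Slc2a1 (GLUT1) by 0.08 ± 0.14 in DKD against Sham (adjusted p = 0.499 and 0.785). With enarodustat against DKD, Ddit4 (REDD1), a stress-induced inhibitor of mTORC1 that forms a complex with TXNIP, rose by 1.02 ± 0.23 (adjusted p = 0.0324), with 9 of 9 treated arrays above the DKD mean and the call lost in 13 of 37 alternatives. Against Sham, Ddit4 and Slc2a1 were higher in DKD+enarodustat kidneys and passed, and Prkaa2 and Adrb1 were lower and passed.

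Of 7 genes that phosphorylate glucose or release it from glucose 6-phosphate, the metabolite that activates Mondo factors, none passed in DKD against Sham in limma (1 at an unadjusted p under 0.05). With enarodustat against DKD, Hk2 (hexokinase 2), also a HIF target, rose by 1.84 ± 0.33 (adjusted p = 0.00523). The Hk2 probe exceeded background on 9 of 9 DKD+enarodustat but only 3 of 9 DKD arrays, and the change was 0.22 with normexp and quantile normalization. It was also the 1 of 7 that rose in DKD+enarodustat against Sham. Among 17 HIF target genes, 10 rose in DKD+enarodustat against DKD, where 0.71% of all genes passed, the largest being Slc16a3, the lactate exporter MCT4, by 3.04 ± 0.17 (adjusted p = 4.29e-11), and Ankrd37 by 2.06 ± 0.17 (adjusted p = 7.05e-08). On the same arrays no glucose-sensing member passed, and whether the HIF targets responded differently from the members was not tested. Hk2 and Ddit4 are among the 10. Egln3 (1.48 ± 0.21) and P4ha1 (0.88 ± 0.11), both hydroxylases, also rose, and lost their calls with the slide row as a term (adjusted p = 0.086 and 0.0533, the highest over 37 alternatives). Another of the 10 lost its call in 24 of 37 alternatives. In DKD against Sham 3 of the 17 rose, Slc16a3 by 1.29 ± 0.19, Egln3 by 1.02 ± 0.23 and Ankrd37 by 0.69 ± 0.19, and Egln1 fell by 0.22 (adjusted p = 0.000117, 0.00492, 0.0173 and 0.0288). Ankrd37 and Egln1 lost these calls in 5 and 11 of 37 alternatives. With normexp and quantile normalization Slc16a3 changed by 0.53 and Egln3 by 0.54, and both kept their calls.

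In bulk tissue, fewer cells of a type and less RNA per cell cannot be told apart. Of all genes, 5.48% rose and 6.07% fell in DKD against Sham, where 4391 of 17737 had an unadjusted p under 0.05. In DKD+enarodustat against DKD 0.71% of all genes passed. Of 6 markers of collecting duct principal cells, 5 rose in DKD against Sham, with mean levels of 1.78 to 2.22 in DKD and 1.25 to 1.72 in Sham arrays. Of 4 tested erythroid markers 3 fell, with 3.69 to 5.42 in DKD and 4.61 to 5.97 in Sham arrays, and of 9 proximal tubule markers 1 rose and 2 fell. All 6 lymphocyte markers were lower in DKD than in Sham (median −0.54), of which Cd3g passed and 5 had an unadjusted p under 0.05, with mean levels of −4.24 to −3.39 in DKD and −3.63 to −3.10 in Sham arrays. Of 5 macrophage markers Csf1r fell, with −1.19 to −0.36 in DKD and −0.79 to −0.38 in Sham arrays, and of 5 markers of the loop of Henle and distal tubule 1 rose and 1 fell. In DKD+enarodustat against DKD, 3 of 6 endothelial markers rose (2.23 to 2.59 against 2.04 to 2.24) and 1 of 4 erythroid markers (4.50 to 6.24 against 3.69 to 5.42). Each of these markers was well above background on at least some arrays, and their part in the values of Txnip and Mlx was not tested.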

How the data were processed

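RNA was labelled with Cy3 and hybridised to Agilent single-colour arrays, 1 per sample, per the labels' protocols. The scanner files hold spot intensity values, background subtracted within the array by version 12.1.1.1 of Agilent Feature Extraction, per the file headers, with no scaling among arrays. A different version, 11.5.1.1, and limma are named in the submitters' processing notes. The authors' deposited table holds log2 values of 31409 probes, with 12 of the 13 member probes. Its scale is not stated and was found by comparison: normexp (offset 50) on median signals with quantile normalization gave all but 644 of 753816 values within 0.05. Column medians lie between 7.543 and 7.559, without centring per gene.

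From the scanner files, control spots and outlier-flagged spots were left out (0 of the member values), spots of a probe were averaged, and log2 signals minus each array's 75th percentile (signals of 187 to 388) were taken. Each array had 37716 to 44732 spots well above background, and precision is limited by the number of arrays. Probes were named through their accessions and a RefSeq table of assembly GRCm38.p6 (32994 of 56605 probes, 22911 symbols). The brightest probe stood for a gene, which was tested if that probe exceeded background clearly on at least 6 of 24 arrays. One limma fit (R 4.3.3, limma 3.58.1, and data.table, version 1.17.8) with group as the only term gave 3 two-sided contrasts with Benjamini-Hochberg adjustment over 17737 genes. Less bright probes were read from a separate limma fit of every probe, adjusted over 40774 probes. The fitting code was tested on simulated data. Correlations used Python 3.11.15 with numpy 2.4.6 and scipy 1.17.1, with 100000 resamples, and figures used matplotlib 3.10.9. Arrays of a group correlated at 0.964 to 0.991 across genes, and the closest such pair differed by a median of 0.159 (log2 scale). The series text counts mice per group, so replicates were taken as separate mice.

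The members and gene lists were chosen with earlier results of these data known. The lists were target genes of MondoA or ChREBP, the MYC, MAX and MXD network, other arrestins, thioredoxin system and partners, glucose phosphorylation, glucocorticoid-responsive genes, HIF targets and 9 sets of cell type markers. Genes named are the members at every probe, up to 6 passing genes per list and comparison by absolute change in DKD against Sham and in DKD+enarodustat against DKD, and the 5 genes most like Txnip and Arrdc4. Txn1, Slc2a1, Man2b2, other genes without a call and genes called in DKD+enarodustat against Sham alone were named after their values were seen. Alternatives changed the background correction, scaling, probe filter, probe choice, slide, slide row, replicate number, groups fitted and each array.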

Additional observations from a re-analysis of the deposited data

Results flagged for a closer look

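In groups of 6 or 9 arrays, an array was marked where its gap to the nearest other array was too large a share of the group's range by Dixon's test, which chance does in about 1 of 20 groups. Of 39 groups examined over the 13 member probes, 3 were marked.

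Arrdc2 in DKD+enarodustat 1 had a level of 2.26 at the brightest probe, where the next highest array of the group had 1.22. The less bright Arrdc2 probe gave 2.13 in the same mouse, with the next at 1.08. Mlxip in Sham 5 had a level of −3.62 at its brightest probe, below the next lowest Sham array at −2.98.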

How the results depend on the processing

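Over 38 alternatives each (37 for Arrdc3, which has 1 probe), Txnip in DKD against Sham kept its direction and its call, Mlx in DKD against Sham kept its call in 37, and Arrdc4, Arrdc2, Arrdc3, Mlxip and Mlxipl did not pass in any comparison. Unless a cause is given, the cause of a change was not tested. Txnip in DKD+enarodustat against Sham (main value 0.47, adjusted p = 0.0597) passed with normexp and quantile normalization (0.55, adjusted p = 0.0168), normexp with the 75th percentile (0.49, 0.0411), quantile normalization (0.54, 0.0216), the deposited values (0.54, 0.0157), the mean of all probes (0.48, 0.0351), the arrays of both groups alone (0.47, 0.00667) and the other probe (0.50, 0.0324). Leaving out arrays gave 0.42 to 0.51, and it passed without DKD+enarodustat 6, DKD 3 or DKD 4. Mlx in DKD+enarodustat against Sham lost its call with the slide row as a term (−0.85, adjusted p = 0.106), with the replicate block (−0.58, 0.0625), at the other probe (−0.28, 0.166) and without Sham 3 or Sham 4 (all left-out arrays, −0.73 to −0.59). Mlx in DKD against Sham lost it at the other probe (−0.34, 0.119).

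The number of genes passing in DKD+enarodustat against DKD, 126, was 82 with no probe filter, 20 with the slide row, 68 with the replicate block, 51 with the arrays of both groups alone, and 76 to 130 with 1 array left out, lowest without DKD+enarodustat 8 and at 82 without DKD+enarodustat 6 or DKD 7. DKD+enarodustat against Sham had 872 with the slide row. Within slides 1 to 3, with 8 arrays or fewer in each fit, the counts were 4, 3 and 0 in DKD+enarodustat against DKD (543 genes at an unadjusted p under 0.05 in limma on slide 3), 14, 0 and 9 in DKD against Sham (1657 on slide 2) and 31, 30 and 7 in DKD+enarodustat against Sham. Within slides, Txnip changed by 1.08 on slide 1 and 0.34 on slide 2 in DKD against Sham and by 0.34 on slide 2 in DKD+enarodustat against Sham. Arrdc4 changed by 0.86 on slide 3 in DKD against Sham, −0.094 on slide 2 in DKD+enarodustat against DKD and −0.28 on slide 1 in DKD+enarodustat against Sham. Arrdc2 changed by 0.653 and 0.047 on slides 1 and 3 in DKD+enarodustat against DKD and by 0.597 and −0.073 in DKD+enarodustat against Sham, and Mlxipl by 0.34 on slide 2 in DKD against Sham.

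The correlation of Txnip with Arrdc4 passed as rho (0.629, adjusted p = 0.0211), with slide effects removed but permutations across slides (0.582, 0.0308) and without DKD 3 (0.595, within 0.413 to 0.595 over left-out arrays). That of Txnip with the brightest Mlxipl probe passed without DKD 3 (−0.62, within −0.62 to −0.50). Whether replicate numbers pair the mice could not be settled. Same-numbered arrays of different groups had a median correlation of deviations of 0.098 (−0.357 to 0.284, 21 pairs), against −0.023 for different numbers (−0.462 to 0.544, 168 pairs). The same number was shared by 8 of 42 best matches. Same-numbered DKD and DKD+enarodustat arrays also shared a slide, so number and slide cannot be told apart there. With the replicate block 1465 genes passed in DKD against Sham and 2174 in DKD+enarodustat against Sham, and Txnip in DKD against Sham changed by 0.71 (adjusted p = 0.0343). Apart from Mlx, the block changed no call of a member. The planned normexp correction on mean signals was not run, because the files hold median signals, and normexp on median signals with the 75th percentile and the separate fit of every probe were chosen after seeing the data. Dim probes limit the values of Hk2 and of the less bright Mlxip probe.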

Other observations

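Among 10 genes that glucocorticoids induce, a class to which Txnip is also known to belong, 3 rose and 1 fell in DKD against Sham, with a median change of −0.01. Of all genes, 5.48% rose and 6.07% fell in that comparison. Sgk1, the kinase that raises tubular sodium uptake, rose to a mean level of 4.08 in DKD against 3.03 in Sham kidneys (1.05 ± 0.20, adjusted p = 0.0013), and the metallothionein genes Mt1 and Mt2 by 0.92 ± 0.22 and 1.03 ± 0.25 (adjusted p = 0.00796 and 0.00797). Errfi1, a feedback inhibitor of the EGF receptor, changed by −0.38 ± 0.13 (adjusted p = 0.049) and lost its call in 24 of 37 alternatives. Fkbp5 and Tsc22d3, frequently used as reporters of glucocorticoid action, changed by −0.52 ± 0.19 and 0.00 ± 0.21 (adjusted p = 0.074 and 0.995). With enarodustat against DKD, none of the 10 passed in limma, where 0.71% of all genes did. There 1 had an unadjusted p under 0.05, beside 1931 of the 17737 genes. In DKD+enarodustat against Sham, Sgk1, Mt1 and Mt2 rose and Fkbp5 fell, where 15.5% of all genes passed.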
